A study of Homo sapiens with 21 samples.

Results

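The libraries described here came from tumours of mice given CPI-1205 (3 libraries) and of mice given vehicle (3 libraries). They were chosen by the treatment in their labels and are 6 of the 21 RNA-seq libraries of the series. CPI-1205, also known as lirametostat, is an oral inhibitor of the histone methyltransferase EZH2. All libraries came from HT1376, a human bladder carcinoma line, grown under the skin of the right flank of female CB17 SCID mice that were 6 to 8 weeks old at the start. These mice lack mature T and B lymphocytes but keep macrophages and other innate cells. Mice in the CPI-1205 arm received 75 mg/kg by mouth once a day, and the other arm received vehicle. Dosing began 11 to 15 days after implantation, at mean tumour volumes of 139 to 160 mm3, and tumours were collected 1 hour after the dose on day 15. Arms of 5 other inhibitors at the same dose and time (CPI-0209, tazemetostat, PF-06821497, Valemetostat and MAK683, with 3 libraries each) served as further comparisons. Arms held 3 to 21 animals, and the labels leave unsaid whether libraries came from different animals; the p-values here measure only how these libraries spread, which may be technical.

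EZH2 and its relative EZH1 are the alternative catalytic subunits of polycomb repressive complex 2 (PRC2). With EED and SUZ12, they place methyl groups on lysine 27 of histone H3, a mark that keeps developmental regulators, germ-line genes and, in many carcinomas, antigen presentation and chemokine genes silent. Loss of the mark is known to let such genes be transcribed, while the RNA of the PRC2 subunits themselves need not change, since the compounds act on the protein.

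The CPI-1205 libraries held 21760406 to 23950075 counts and the vehicle libraries 22371908 to 25059827. All 12 markers chosen for epithelial bladder carcinoma were measured, and their summed level was 13485 to 14904 CPM (read counts relative to the size of the library, TMM-scaled) with CPI-1205 and 14238 to 15000 CPM in vehicle. The epithelial keratin gene KRT5 had 191610 summed counts with CPI-1205 and 209388 in vehicle. Counts were assigned to human genes, and whether mouse reads were removed is not given in the sources used here. Defining markers of some host cells were at or near 0: ADIPOQ of fat had 0 counts in all 6 libraries, C1QA had 1 count with CPI-1205 and 0 in vehicle, and MS4A1 of B cells had 1 and 0. CPI-1205 library 1 stood apart from its group. It differed from libraries 2 and 3 by a chi-square of 48.7 and 50.7 per gene, against 15.2 between libraries 2 and 3 and 6.00 to 15.9 between vehicle libraries. Libraries 2 and 3, and not library 1, carry a resubmission mark in their titles, so that mark and the difference between these libraries cannot be told apart.

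CPI-1205 was set against vehicle to ask which genes respond to the inhibitor in the tumour. No gene passed the test: of 21958 genes, 0 were called higher and 0 lower by edgeR's quasi-likelihood test at a Benjamini-Hochberg adjusted p under 0.05 (0% of genes), and the lowest adjusted p was 0.279, shared by 394 genes. Limma-voom also called 0, and DESeq2 called 5 higher (0.137%) and 41 lower (1.12%) among the 3653 genes that its own filter on low means left (1.26% together). At an unadjusted p under 0.05, edgeR had 1326 genes higher (6.04%) and 1387 lower (6.32%), 12.4% together, and the libraries of the groups did not overlap for 2047 genes above vehicle (9.32%) and 2341 below it (10.7%), 20% together. With upper-quartile scaling, the unadjusted numbers were 1945 higher and 888 lower. Most differences were bounded: of 15814 genes with a mean of at least 1 CPM, 14147 (89.5%) had a 95% interval of the difference within 2-fold of vehicle, with a median SE of 0.17 on the log2 scale. In simulated data of this design, edgeR recovered 9 of 50 genes changed 1.5-fold (18%), 39 of 50 changed 2-fold (78%) and 47 of 50 changed 3-fold (94%). The simulation drew the CPI-1205 libraries from a common mean, with no library apart and no pattern by gene length. It also held 50 genes changed 4-fold, and its 145 calls made the adjusted threshold easier to pass than with 0 calls. Recovery in the real data may therefore be lower.

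**Figure D1:**
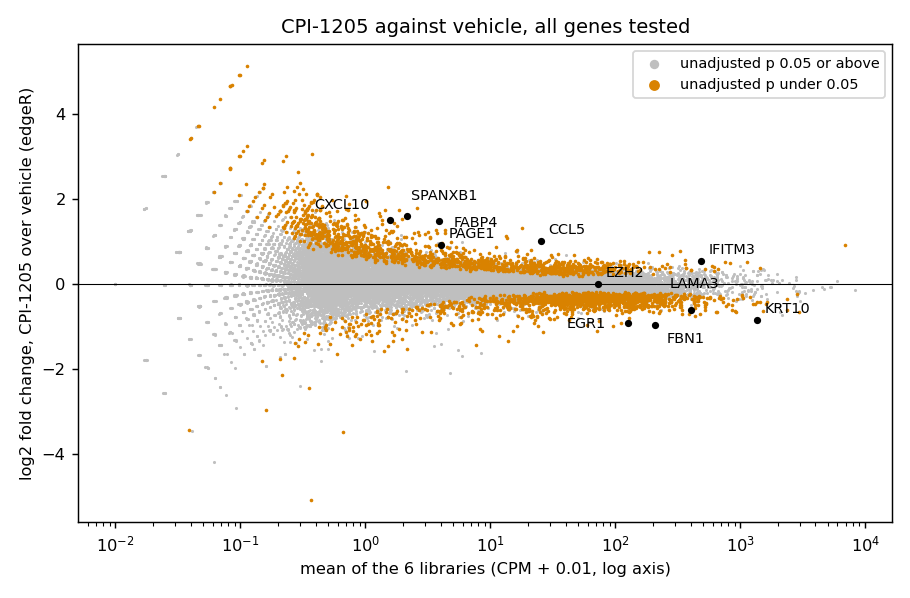
Log2 fold change of each of 21958 genes, CPI-1205 over vehicle (y axis, edgeR), against its mean level over the 6 libraries (x axis, CPM on a log axis). Orange points have an unadjusted p under 0.05, none has an adjusted p under 0.05, and named genes are marked in black.

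These counts depended on settings. Without a filter on low counts edgeR called 124 genes higher and 234 lower, of which 122 and 234 were also tested in the filtered table. With both resubmission-marked CPI-1205 libraries left out, so that library 1 stood alone and was assumed to vary like the other groups, it called 93 higher and 199 lower. Leaving out library 1 gave 1 higher (FABP4, a fatty acid carrier of urothelium and fat) and 3 lower (MME, a membrane peptidase; CD36, a lipid scavenger receptor; and STC1, a secreted glycoprotein).

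No RNA of the drug target or its complex passed the test. EZH2 (ENSG00000106462, chr7:148807383-148884321, hg38) stood at 66.4, 77.6 and 74.3 CPM in CPI-1205 libraries 1 to 3, against 72.7, 71.4 and 73.6 CPM in vehicle libraries 1 to 3. The groups overlapped, and the log2 fold change was 0.00 ± 0.10 (95% interval -0.21 to 0.21, edgeR adjusted p 0.992). EZH1 stood at 48.1, 47.03 and 44.6 CPM with CPI-1205 and 45.9, 49.3 and 46.3 CPM in vehicle (log2 fold change -0.02 ± 0.11, edgeR adjusted p 0.961). EED, the subunit that reads the methyl mark, was at 27.5, 33.3 and 30.3 CPM with CPI-1205 and 38.1, 37.7 and 35.4 CPM in vehicle. Its CPI-1205 libraries all lay below vehicle, with a log2 fold change of -0.29 ± 0.13 (edgeR adjusted p 0.377). SUZ12, the scaffold subunit, stood at 37.5, 51.1 and 50.4 CPM with CPI-1205 and 55.8, 52.9 and 50.96 CPM in vehicle, and the groups overlapped. Of the 14 tested PRC2 genes, all had intervals within 2-fold of vehicle (67.8% of all tested genes had), and their median log2 fold change was -0.04, beside 0.02 over all genes.

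A list of H3K27 demethylases and acetylases lay below vehicle in all 10 tested members, with a median of -0.34, 0 called and 5 lower at an unadjusted p under 0.05. Over all 21958 genes, 11457 lay above 0, and 6.04% were higher and 6.32% lower at that threshold. Besides KDM6A, KDM6B, EP300 and CREBBP the list holds SETD2, NSD1, NSD2 and NSD3, methyltransferases of H3K36, and KMT2C and KMT2D, methyltransferases of H3K4. EP300, a histone acetyltransferase, stood at 101, 95.96 and 82.8 CPM with CPI-1205 and 123, 132 and 181 CPM in vehicle (log2 fold change -0.64 ± 0.21, edgeR adjusted p 0.291). KDM6B, an H3K27 demethylase, stood at 87.7, 71.2 and 61.5 CPM with CPI-1205 and 87.1, 90.05 and 102 CPM in vehicle, where CPI-1205 library 1 fell among the vehicle libraries. Both are long (12500 and 7258 bp of exons, against a median of 4841 bp for tested protein-coding genes), and the part of length in these values was not tested. Among PRC1 genes, the companion polycomb complex, 1 was higher and 4 lower of 26 at an unadjusted p under 0.05, beside 6.04% and 6.32% of all genes. RYBP, a PRC1 subunit, was at 66.3, 70.8 and 58.6 CPM with CPI-1205 and 86.8, 92.8 and 80.2 CPM in vehicle (edgeR adjusted p 0.326). Of 25 SWI/SNF genes, which encode the remodeller that opposes polycomb, 0 were higher and 3 lower at that threshold, beside the same shares of all genes. SMARCC2 had the smallest p of these (log2 fold change -0.44 ± 0.13, edgeR adjusted p 0.279).

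HOX genes, classical polycomb targets that pattern the body axis, were mostly low, with 3 averaging at least 1 CPM. Of 39 in the list 26 passed the filter on low counts and 0 were called; the median log2 fold change was -0.02, and 1 was higher at an unadjusted p under 0.05. HOXA3 stood at 0.363, 0.3301 and 0.403 CPM with CPI-1205 and 0, 0.0839 and 0.279 CPM in vehicle, with no overlap (log2 fold change 1.57 ± 0.65, edgeR adjusted p 0.342). HOXD11 had 7 counts with CPI-1205 and 1 count in vehicle, a ratio of 6.88 whose 95% counting interval ran from 0.883 to 310; counting intervals cover counting error only. Only 3 of the 26 had intervals within 2-fold, so that for the others a 2-fold difference lay within the interval. Developmental transcription factors (94 tested) had 0 called and a median of 0.00, with 1 higher and 3 lower at an unadjusted p under 0.05 (6.04% and 6.32% of all genes). GATA6, an endoderm factor, stood at 5.27, 5.03 and 4.74 CPM with CPI-1205 and 6.38, 6.84 and 8.01 CPM in vehicle, all below vehicle (log2 fold change -0.50 ± 0.15, edgeR adjusted p 0.279). SALL4, a stem cell factor, was at 1.59, 0.743 and 0.9398 CPM with CPI-1205 and 0.453, 0.462 and 0.745 CPM in vehicle (edgeR adjusted p 0.395). Signalling genes of development (63 tested) split into 2 higher and 2 lower at that threshold, SEMA3A, an axon guidance cue, being at 3.45, 3.67 and 3.22 CPM with CPI-1205 and 2.399, 2.85 and 2.33 CPM in vehicle.

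**Figure D2:**
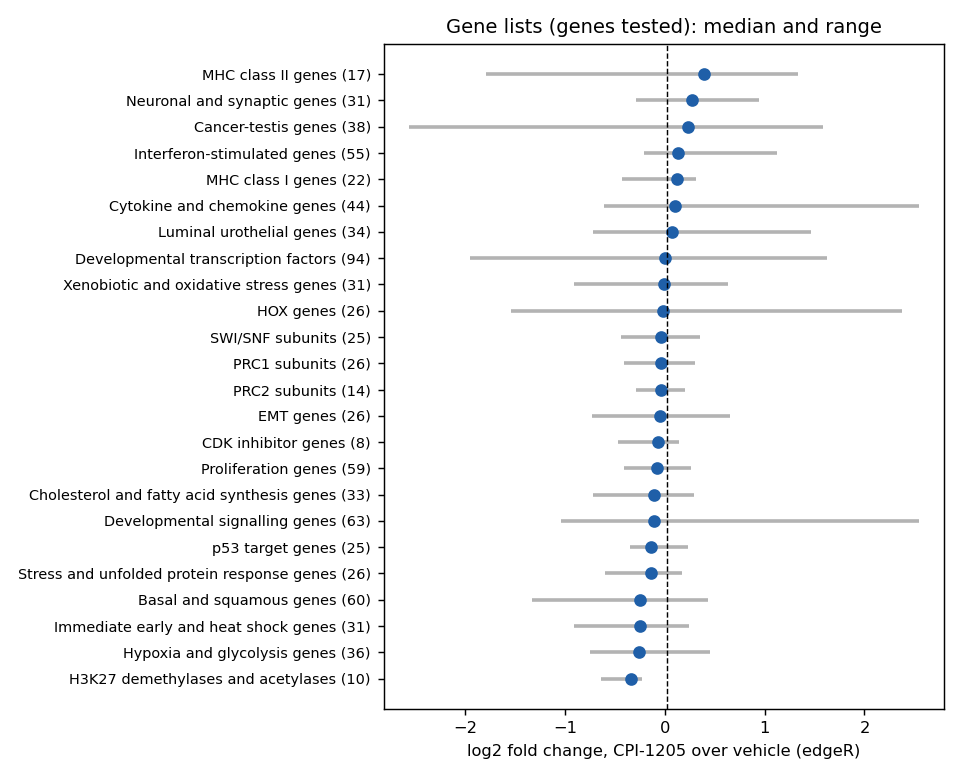
Log2 fold changes, CPI-1205 over vehicle (x axis, edgeR), for 24 gene lists with the number of genes tested in brackets. Dots are list medians, bars run from the lowest to the highest member, and the dashed line is the median of all genes, 0.02; MHC class II genes stand highest at 0.39 and H3K27 demethylases and acetylases lowest at -0.34.

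MHC class II genes, which show antigen to helper T cells and are switched on by the transactivator CIITA, had the highest list median against vehicle (0.39), with 14 of 17 above 0, 0 called and 0 at an unadjusted p under 0.05. The promoters of HLA-DPB1, HLA-DQB1 and CD74 are shown because all 3 genes were called lower with CPI-1205 than with CPI-0209 and PF-06821497, with values below.

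HLA-DPB1: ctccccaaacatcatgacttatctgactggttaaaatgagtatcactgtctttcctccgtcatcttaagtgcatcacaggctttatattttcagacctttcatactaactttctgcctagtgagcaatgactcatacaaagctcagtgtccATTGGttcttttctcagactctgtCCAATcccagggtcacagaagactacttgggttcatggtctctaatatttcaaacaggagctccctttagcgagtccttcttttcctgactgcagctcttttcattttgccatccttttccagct
HLA-DQB1: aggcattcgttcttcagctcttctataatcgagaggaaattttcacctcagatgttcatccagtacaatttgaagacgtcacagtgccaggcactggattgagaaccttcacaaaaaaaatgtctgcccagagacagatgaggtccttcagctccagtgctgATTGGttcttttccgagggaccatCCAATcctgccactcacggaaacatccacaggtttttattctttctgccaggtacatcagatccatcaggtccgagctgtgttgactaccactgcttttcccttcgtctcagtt
CD74: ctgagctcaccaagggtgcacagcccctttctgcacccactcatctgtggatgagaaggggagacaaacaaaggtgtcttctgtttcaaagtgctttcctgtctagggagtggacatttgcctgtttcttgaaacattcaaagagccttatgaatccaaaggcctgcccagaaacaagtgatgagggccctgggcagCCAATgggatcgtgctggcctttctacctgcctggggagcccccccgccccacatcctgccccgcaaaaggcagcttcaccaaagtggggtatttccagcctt

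Each is the RefSeq promoter (GRCh38.p14, 250 bases before to 50 after the start, 5′ to 3′ on the gene's strand), at chr6:33075740-33076039 on the plus strand, chr6:32666608-32666907 on the minus strand and chr5:150412861-150413160 on the minus strand. Capitals mark CCAAT on either strand (CCAAT or ATTGG), the letters at the core of the Y box of class II promoters. Promoters were found for 14 of the 17 listed genes, 13 of which hold these letters, as do 34.6% of all 35116 promoters in the table. A match is a description of the letters and not of binding.

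HLA-DPB1 (ENSG00000223865, chr6:33075926-33087201, hg38), which encodes the beta chain of HLA-DP, stood at 0.999, 1.44 and 0.537 CPM with CPI-1205 and 0.679, 1.26 and 0.559 CPM in vehicle, and the groups overlapped (log2 fold change 0.25 ± 0.46, 95% interval -0.71 to 1.21, edgeR adjusted p 0.851). HLA-DQB1 stood at 4.496, 6.39 and 1.66 CPM with CPI-1205 and 2.63, 3.52 and 2.33 CPM in vehicle. CD74, the invariant chain that guides class II molecules, was at 32.7, 41.8 and 11.5 CPM with CPI-1205 and 17.97, 32.1 and 15.4 CPM in vehicle. In all 3 genes CPI-1205 library 2 was highest and library 3 lowest, and library 3 lay below the lowest vehicle library. CIITA was at 5.72, 7.05 and 6.04 CPM with CPI-1205 and 4.798, 5.87 and 4.89 CPM in vehicle, again overlapping (log2 fold change 0.27 ± 0.30, edgeR adjusted p 0.722). IFI30, a lysosomal reductase of antigen processing, was the 1 class II list gene whose CPI-1205 libraries all lay above vehicle, at 2.63, 2.15 and 2.28 CPM with CPI-1205 and 1.58, 2.06 and 1.304 CPM in vehicle (edgeR adjusted p 0.415). Over all genes, 9.32% had no overlap above vehicle. HLA genes are close copies of each other, so counts of single members are uncertain.

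MHC class I, interferon and chemokine genes had small positive medians, which for class I and interferon genes were highest in library 1. The class I median difference from the vehicle mean was 0.22, -0.01 and -0.01 (log2) in CPI-1205 libraries 1 to 3, against -0.01, 0.07 and -0.10 in vehicle libraries 1 to 3. For interferon-stimulated genes it was 0.43, 0.05 and -0.12 in CPI-1205 libraries 1 to 3, against -0.11, 0.12 and -0.02 in vehicle libraries 1 to 3. CPI-1205 libraries 2 and 3 lay among or below the vehicle libraries in both lists. Of 22 class I genes 0 were called and 2 were higher and 2 lower at an unadjusted p under 0.05 (median 0.12). PSMB9, an immunoproteasome subunit, was at 33.2, 30.4 and 32.8 CPM with CPI-1205 and 27.5, 28.5 and 21.8 CPM in vehicle (log2 fold change 0.31 ± 0.14, edgeR adjusted p 0.386), while ERAP1, a peptide-trimming enzyme, was at 173, 148 and 130.5 CPM with CPI-1205 and 186, 197 and 223 CPM in vehicle (-0.43 ± 0.14, edgeR adjusted p 0.29). Of 55 interferon-stimulated genes 42 lay above 0, 6 had no overlap above vehicle, 4 were higher and 0 lower at an unadjusted p under 0.05 and 0 were called (median 0.13); over all genes 9.32% had no overlap above vehicle and 6.04% were higher, shares near those of the list. ISG15, a ubiquitin-like interferon product, stood at 161, 119 and 132 CPM with CPI-1205 and 96.7, 113 and 86.4 CPM in vehicle (edgeR adjusted p 0.32). IFITM3, an antiviral membrane protein, stood at 869, 436 and 433 CPM with CPI-1205 and 383, 482 and 335 CPM in vehicle, with library 1 alone above all of them.

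Among cytokine and chemokine genes 3 of 44 were higher and 0 lower at an unadjusted p under 0.05, a share near the 6.04% of all genes that were higher, and 0 were called by edgeR (median 0.10). CCL5, a T cell and monocyte attractant, stood at 43.1, 36.5 and 22.5 CPM with CPI-1205 and 18.8, 17.9 and 14.3 CPM in vehicle, every CPI-1205 library above every vehicle library. Its log2 fold change was 1.00 ± 0.28 with an edgeR adjusted p of 0.279 and a DESeq2 adjusted p of 0.0488. CXCL10, an interferon-induced T cell attractant, stood at 1.59, 2.85 and 2.46 CPM with CPI-1205 and 0.7696, 0.923 and 0.745 CPM in vehicle, also without overlap (log2 fold change 1.49 ± 0.53, edgeR adjusted p 0.315). CXCL1, a neutrophil attractant, stood at 1.499, 1.24 and 1.57 CPM with CPI-1205 and 1.22, 0.587 and 1.02 CPM in vehicle (0.61 ± 0.39, edgeR adjusted p 0.52). The macrophage and granulocyte list, cells known to make such factors, summed to 138 to 262 CPM with CPI-1205 and 181 to 221 CPM in vehicle, and its part in these values was not tested. ITGAM was the largest part of that sum, with a mean of 109 CPM with CPI-1205 and 124 CPM in vehicle. PTPRC, of the same list, averaged 0.205 CPM with CPI-1205 and 0.18 CPM in vehicle.

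Cancer-testis genes, germ-line genes that polycomb and DNA methylation keep silent elsewhere, had the largest share of members above vehicle at the unadjusted level among the lists. Of 38, 10 were higher and 0 lower, against 6.04% of all genes higher, and 0 were called by edgeR (median 0.23). In 11 the libraries had no overlap above vehicle, against 9.32% of all genes. PAGE1 stood at 4.905, 6.02 and 4.79 CPM with CPI-1205 and 3.08, 2.85 and 2.47 CPM in vehicle, with no overlap (log2 fold change 0.90 ± 0.21, edgeR adjusted p 0.279). SPANXB1, a sperm protein gene, stood at 2.91, 3.71 and 3.13 CPM with CPI-1205 and 1.22, 1.17 and 0.838 CPM in vehicle (1.58 ± 0.44, edgeR adjusted p 0.279). MAGEA10 stood at 7.67, 10.9 and 9.76 CPM with CPI-1205 and 6.43, 7.22 and 7.08 CPM in vehicle (0.45 ± 0.14, edgeR adjusted p 0.279). PRAME, a tumour antigen gene, stood at 1.09, 1.65 and 1.16 CPM with CPI-1205 and 0.679, 0.629 and 0.466 CPM in vehicle, again without overlap (1.13 ± 0.37, edgeR adjusted p 0.288). GAGE, PAGE, SPANX and MAGE genes lie in families of near-identical copies, so reads may be split between members. Neuronal and synaptic genes had 2 higher and 0 lower of 31 at an unadjusted p under 0.05 (median 0.27), with UCHL1, a neuronal ubiquitin hydrolase, at 0.863, 1.03 and 1.25 CPM with CPI-1205 and 0.407, 0.881 and 0.606 CPM in vehicle.

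**Figure D3:**
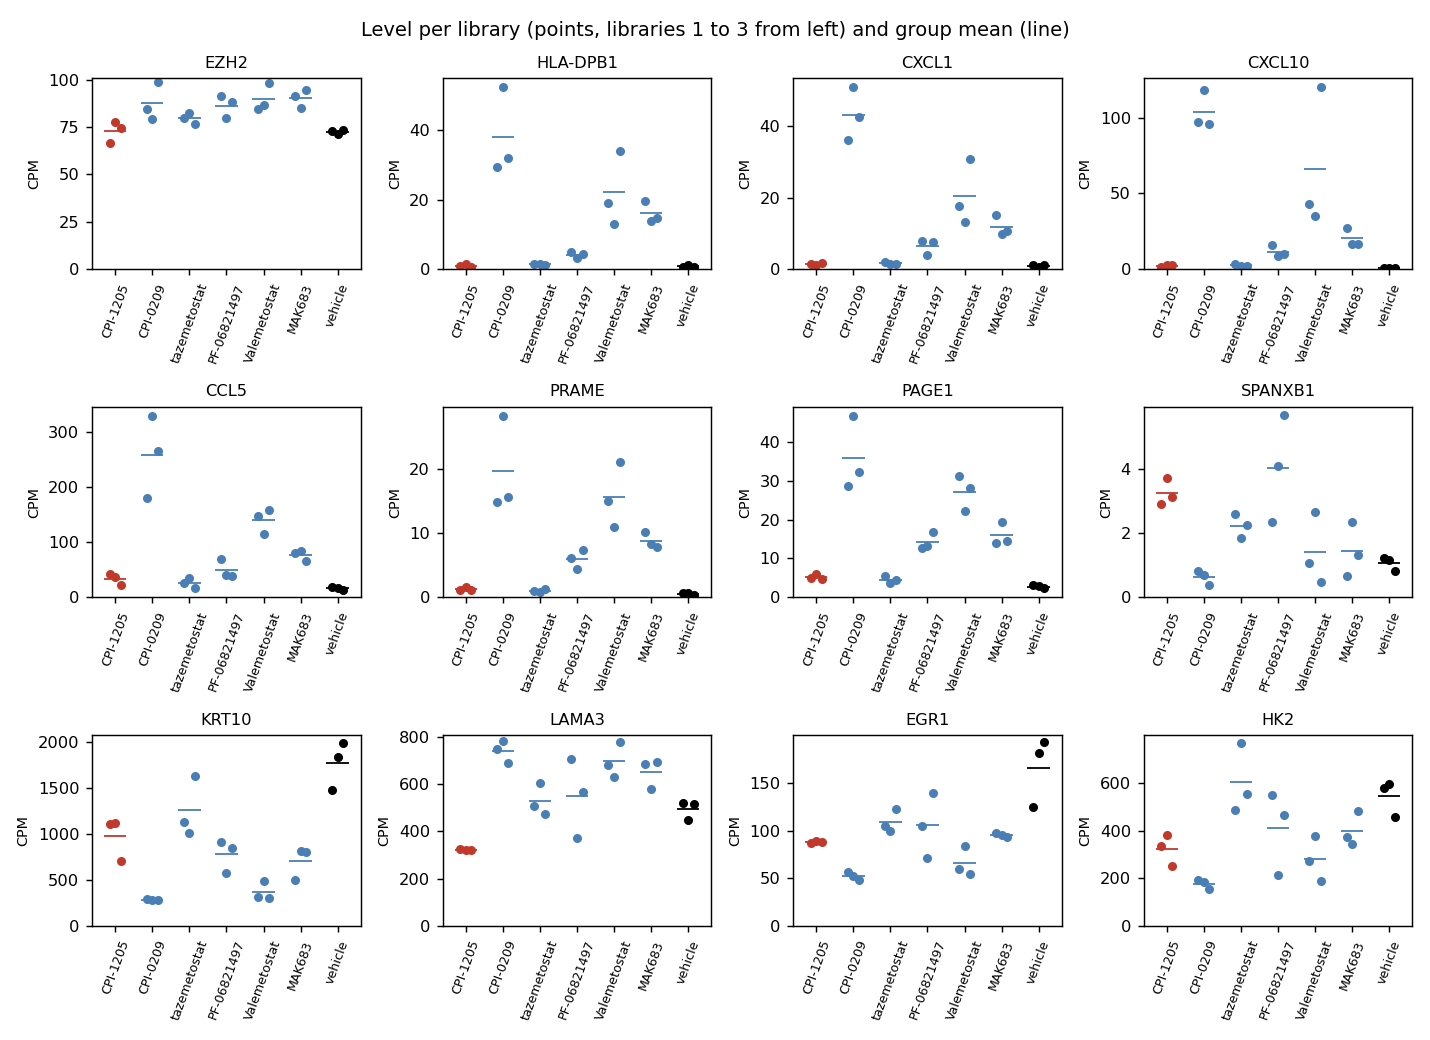
CPM of 12 genes in every library (points, y axis from 0) of 7 groups (x axis, CPI-1205 in red, other compounds in blue, vehicle in black), with group means as lines. The CPI-1205 libraries overlap the tazemetostat libraries for HLA-DPB1, CXCL1 and CXCL10, for which CPI-0209 has the highest mean, and KRT10, EGR1 and LAMA3 lie below vehicle in every CPI-1205 library.

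Basal and squamous epithelial genes mostly lay below vehicle, in libraries 2 and 3 more than in library 1. The list's median difference from the vehicle mean was -0.05, -0.39 and -0.49 (log2) in CPI-1205 libraries 1 to 3 and -0.04, 0.02 and -0.01 in vehicle libraries 1 to 3, so library 1 lay close to the vehicle libraries. Of 60 tested, 49 had a log2 fold change under 0 (median -0.25). At an unadjusted p under 0.05 by edgeR, 17 were lower and 0 higher, against 6.32% of all genes lower. In 23 the libraries had no overlap below vehicle, against 10.7% of all genes. By edgeR 0 were called, and 4 of them were among the 41 that DESeq2 called lower. KRT10, a keratin of differentiating squamous cells, stood at 1105, 1119.9 and 708 CPM with CPI-1205 and 1480.0, 1831 and 1983 CPM in vehicle (log2 fold change -0.85 ± 0.23, edgeR adjusted p 0.279, DESeq2 adjusted p 0.0488). LAMA3, a laminin chain that anchors epithelium to its basement membrane, stood at 323, 322 and 319 CPM with CPI-1205 and 517, 447 and 514 CPM in vehicle (-0.62 ± 0.16, edgeR adjusted p 0.279, DESeq2 adjusted p 0.0488). EGFR, the epidermal growth factor receptor gene, stood at 478, 588 and 457 CPM with CPI-1205 and 719, 730.0 and 964 CPM in vehicle (-0.66 ± 0.18, edgeR adjusted p 0.279, DESeq2 adjusted p 0.0488). The groups did not overlap in KRT10, LAMA3 or EGFR. Skin keratinocyte and hair markers, of which KRT10 is one, summed to 1971 to 3334 CPM with CPI-1205 and 3741 to 5092 CPM in vehicle. Their part in these values was not tested. Fewer cells of a type and less RNA per cell cannot be told apart in bulk tumour RNA.

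Other genes called lower by DESeq2 are named here after the calls were seen. FBN1, encoding the microfibril protein fibrillin, stood at 129, 163 and 134 CPM with CPI-1205 and 281, 224 and 325 CPM in vehicle (log2 fold change -0.96 ± 0.19, edgeR adjusted p 0.279, DESeq2 adjusted p 0.00209). MYH9, a non-muscle myosin heavy chain gene, stood at 995, 1427 and 1135 CPM with CPI-1205 and 1911, 1716 and 1873 CPM in vehicle (-0.63 ± 0.14, DESeq2 adjusted p 0.00566). SRF, the transcription factor that drives many cytoskeletal and immediate early genes, stood at 53.8, 70.3 and 58.9 CPM with CPI-1205 and 85.8, 87.6 and 85.2 CPM in vehicle (DESeq2 adjusted p 0.0488). The integrin gene ITGB1, the tropomyosin gene TPM4, the collagen gene COL12A1, and LASP1, MICAL2 and SVIL, which encode actin-binding proteins, were also among the 41 called lower by DESeq2. The 5 it called higher were CCL5, the small nucleolar RNA host genes SNHG1 and SNHG6, the proteasome subunit gene SEM1 and the troponin gene TNNI2. SNHG1 stood at 93.9, 96.9 and 118 CPM with CPI-1205 and 73.9, 73.7 and 74.6 CPM in vehicle (DESeq2 adjusted p 0.00476). TNNI2 stood at 173, 240.2 and 296 CPM with CPI-1205 and 155, 133 and 129.7 CPM in vehicle, while 15 of 18 skeletal muscle markers had a log2 fold change at or under 0. ACTA1, skeletal muscle actin, had 288 summed counts with CPI-1205 and 835 in vehicle, and ran from 0.839 to 23.6 CPM over the 6 libraries. Muscle markers spread widely within both groups. Their median difference from the vehicle mean ran from -1.72 to 0.17 (log2) with CPI-1205 and from -2.07 to 0.91 in vehicle. By edgeR 0 of the 18 were called, and 1 was higher and 1 lower at an unadjusted p under 0.05. Over all 21958 genes, 11457 had a log2 fold change above 0. ACTA1 was named after its values were seen, and the other genes of this paragraph because DESeq2 called them. Fibroblast and matrix markers summed to 2235 to 2481 CPM with CPI-1205 and 2394 to 3051 CPM in vehicle, and their part in these values was not tested.

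Immediate early and heat shock genes had 9 of 31 lower and 0 higher at an unadjusted p under 0.05 (median -0.25), against 6.32% of all genes lower, and 0 called by edgeR. EGR1, a transcription factor switched on by growth factor signals, stood at 86.5, 89.3 and 88.3 CPM with CPI-1205 and 125, 181 and 193 CPM in vehicle. The CPI-1205 libraries were closely grouped below the vehicle libraries, with a log2 fold change of -0.91 ± 0.19, an edgeR adjusted p of 0.279 and a DESeq2 adjusted p of 0.00702. JUN, a subunit of AP-1, stood at 129, 144 and 139 CPM with CPI-1205 and 182, 215 and 197 CPM in vehicle (-0.53 ± 0.15, edgeR adjusted p 0.279). Among cholesterol and fatty acid synthesis genes 7 of 33 were lower and 0 higher at an unadjusted p under 0.05 (median -0.10), against the same 6.32%. Of 36 hypoxia and glycolysis genes 7 were lower and 0 higher at an unadjusted p under 0.05 (median -0.26), against 6.32% of all genes lower. The list's median difference from the vehicle mean was 0.01, -0.26 and -0.53 (log2) in CPI-1205 libraries 1 to 3, against 0.06, 0.07 and -0.11 in vehicle libraries 1 to 3, so library 1 lay among the vehicle libraries. In this list, the hexokinase gene HK2 stood at 336, 382 and 252 CPM with CPI-1205 and 577, 596 and 458 CPM in vehicle (edgeR adjusted p 0.322).

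Proliferation genes differed little. Of 59, 8 were lower and 0 higher at an unadjusted p under 0.05 (6.32% of all genes were lower), 59 of 59 had intervals within 2-fold and the median was -0.08. MKI67, a marker of cycling cells, stood at 277, 317 and 249.7 CPM with CPI-1205 and 349, 331 and 409.8 CPM in vehicle (-0.37 ± 0.14, edgeR adjusted p 0.329). The CDK inhibitor gene CDKN2B, whose locus polycomb is known to silence, stood at 61.5, 76.6 and 79.97 CPM with CPI-1205 and 96.97, 93.6 and 112 CPM in vehicle, below vehicle in every library (-0.47 ± 0.11, edgeR adjusted p 0.279, DESeq2 adjusted p 0.00717). All 8 CDK inhibitor genes and all 25 p53 target genes had intervals within 2-fold, with medians of -0.06 and -0.14.

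The level of short against long genes differed between these groups, and also among libraries of the other arms. Protein-coding genes were split into 5 equal classes by exonic length: the shortest class (up to 2708 bp) had a median log2 fold change of 0.13, with 324 higher and 66 lower at an unadjusted p under 0.05. The longest class (from 7989 bp) had a median of -0.11, with 74 higher and 438 lower. The difference in median level between shortest and longest genes was 0.34, 0.12 and 0.28 (log2, relative to the vehicle mean) in CPI-1205 libraries 1 to 3 and 0.07, 0.07 and -0.15 in vehicle libraries 1 to 3, and the groups did not overlap. The pattern was not particular to CPI-1205. This difference ran from 0.18 to 0.55 with CPI-0209, 0.12 to 0.50 with Valemetostat and 0.04 to 0.52 with PF-06821497. With MAK683 it ran from -0.04 to 0.38 and with tazemetostat from -0.05 to 0.23. Ribosomal protein genes, which are short, lay above 0 in 78 of 80 cases (median 0.25), beside 11457 of all 21958 genes. They took 3.73% to 4.09% of counts with CPI-1205 and 2.89% to 3.39% in vehicle. This list was taken up after values were seen, so its count is a description and no separate support for the length pattern. The 41 genes called lower by DESeq2 had a median exonic length of 8085 bp, against 4841 bp for all tested protein-coding genes. With the difference between short and long genes as a covariate, edgeR called 1 gene higher (PLAG1, a zinc finger transcription factor gene) and 0 lower. The part of the length pattern in the gene groups above was not tested.

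**Figure D4:**
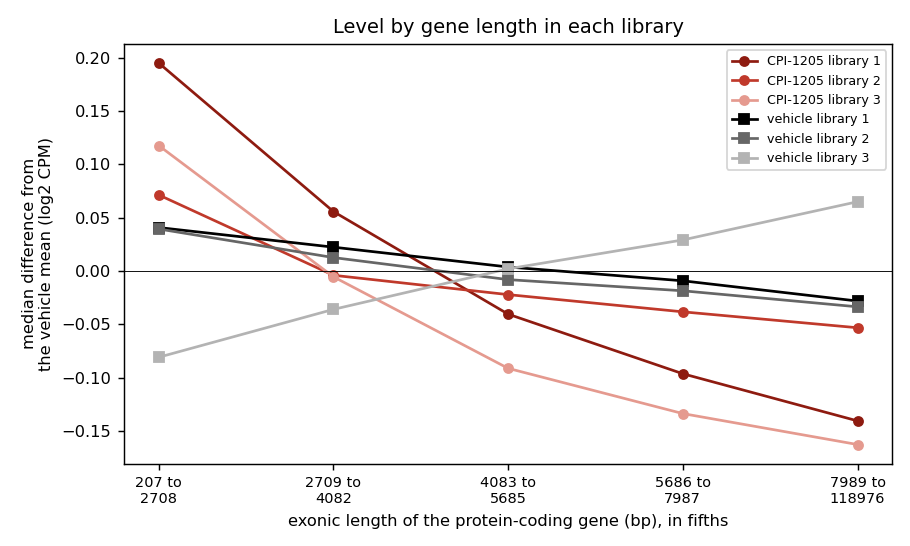
Median difference from the vehicle mean (y axis, log2 CPM) of protein-coding genes in 5 classes of exonic length (x axis, bp), with a line for each CPI-1205 library (red circles) and vehicle library (grey to black squares). All 3 CPI-1205 libraries run from positive values for short genes to negative values for long genes, while vehicle library 3 runs the other way.

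The CPI-1205 libraries also differed among themselves in squamous terminal differentiation. Among 15814 genes with a mean of at least 1 CPM over the 6 libraries, library 1 stood at least 2-fold above both other CPI-1205 libraries in 216 genes and at least 2-fold below them in 221 (2.76% together). The same count for libraries 2 and 3 came to 0.171% and 0.531%, and for the vehicle libraries to 0.0443% to 0.164%. Of the 60 basal and squamous genes, 10 were in the group above and 0 in the group below. Late cornified envelope (LCE) genes, a cluster on chromosome 1 that encodes proteins of the outermost skin layers, led the genes above. LCE1A (ENSG00000186844, chr1:152827473-152827894, hg38) stood at 65.4, 6.601 and 4.83 CPM in CPI-1205 libraries 1 to 3 and 16.5, 21.8 and 21.1 CPM in vehicle libraries 1 to 3. LCE2A stood at 25.9, 1.36 and 2.73 CPM with CPI-1205 and 7.92, 9.11 and 9.36 CPM in vehicle, and LCE3D at 228, 57.8 and 76.9 CPM with CPI-1205 and 132, 158 and 140.2 CPM in vehicle.

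In 12 of the 13 tested LCE genes, library 1 lay above every vehicle library and libraries 2 and 3 below every vehicle library. The same held for 6.74% of the 15814 genes with a mean of at least 1 CPM. These genes were taken up because they were high in library 1 against libraries 2 and 3, so the count is a description. Summed over the 13 genes, the level was 562, 108 and 138 CPM in CPI-1205 libraries 1 to 3 and 264, 320 and 303 CPM in vehicle libraries 1 to 3. Group fold changes hide this split: they ran from -0.49 to 1.26 on the log2 scale, with 0 at an unadjusted p under 0.05 and a lowest edgeR adjusted p of 0.49. KPRP, another cornified layer gene, stood at 87.8, 10.6 and 11.1 CPM with CPI-1205 and 32.5, 42.05 and 48.3 CPM in vehicle, with the same order. Some genes of other kinds also set library 1 apart. DCN, a matrix proteoglycan gene, stood at 10.6, 0.908 and 0.492 CPM with CPI-1205 and 0.498, 1.89 and 1.02 CPM in vehicle, and FKBP2, a secretory pathway isomerase gene, at 30.9, 115 and 153 CPM with CPI-1205 and 116, 116 and 94.7 CPM in vehicle. LCE genes are similar in sequence, so single members are uncertain, and these genes were named after their values were seen.

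**Figure D5:**
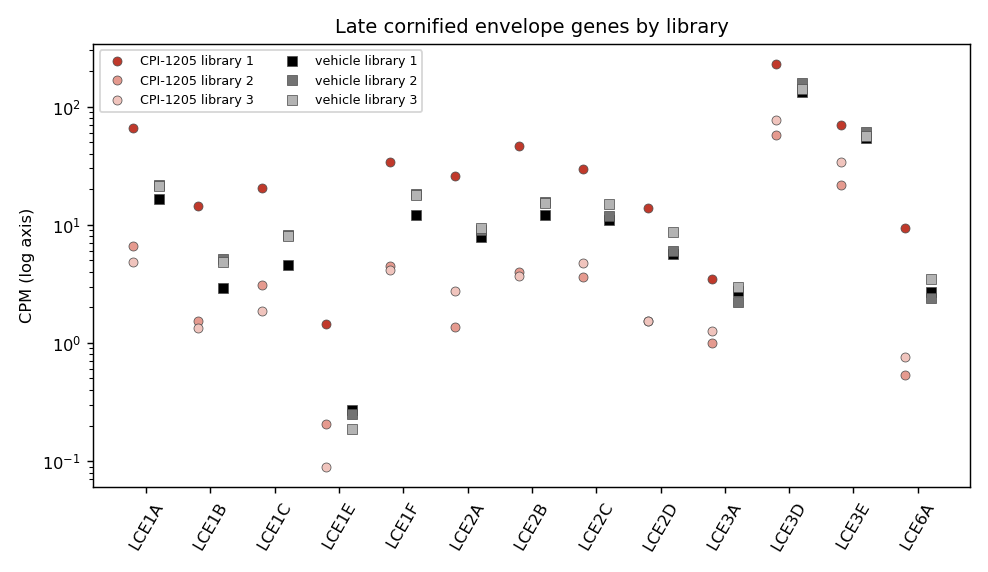
CPM (y axis, log axis) of the 13 tested late cornified envelope genes (x axis) in each CPI-1205 library (circles) and vehicle library (squares). CPI-1205 library 1 lies above the vehicle libraries in all 13, and libraries 2 and 3 lie below them in 12.

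Against CPI-0209, given at the same dose and time, CPI-1205 tumours differed widely: 3359 genes were higher (15.3%) and 4377 lower (19.9%) by edgeR, and 888 and 3346 of these by at least 2-fold. Genes known as polycomb targets or immune genes lay far lower with CPI-1205. MHC class II genes were lower in 16 of 17 and higher in 0 (median -4.84, beside 0.05 over all genes). HLA-DPB1 stood at 0.999, 1.44 and 0.537 CPM with CPI-1205 and 29.5, 52.4 and 32.1 CPM with CPI-0209, and it was lower with a log2 fold change of -5.24 ± 0.38 (edgeR adjusted p 6.22e-09). HLA-DQB1 was lower with a log2 fold change of -4.81 ± 0.42 (edgeR adjusted p 1.32e-07) and CD74 with one of -4.48 ± 0.45 (edgeR adjusted p 6.49e-07). CIITA stood at 5.72, 7.05 and 6.04 CPM with CPI-1205 and 48.7, 58.4 and 54.4 CPM with CPI-0209 (-3.10 ± 0.29, edgeR adjusted p 1.07e-07). Cytokine and chemokine genes were lower in 34 of 44 and higher in 2 (median -2.81), CXCL10 being at 1.59, 2.85 and 2.46 CPM with CPI-1205 and 97.2, 118 and 95.9 CPM with CPI-0209 (-5.49 ± 0.43, edgeR adjusted p 3.25e-08). HOX genes were lower in 24 of 26 (median -3.33), developmental transcription factors in 59 of 94 with 13 higher, and cancer-testis genes in 17 of 38 with 4 higher. Members that are near 0 with CPI-1205 were tested only where another arm had counts, which favours a lower call among those tested.

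The largest differences were in genes at or near 0 with CPI-1205. Such genes were tested only because another arm had counts, which favours a lower call. TFF1, a secreted mucosal repair peptide gene, had 2 counts with CPI-1205 and 800 with CPI-0209, a ratio of 0.00167 (95% counting interval 0.000202 to 0.00605). HLA-DQB2 had 0 counts with CPI-1205 and 104 with CPI-0209, at least 51.9-fold lower when the group's summed counts are set to a floor of 3, and edgeR called it lower (adjusted p 6.83e-07). PPBP, a platelet chemokine gene, and FOXN4, a retinal transcription factor gene, had 0 counts with CPI-1205 and 94 and 70 with CPI-0209, at least 46.9-fold and 34.9-fold lower. The olfactory receptor pseudogene OR2I1P had 1 count with CPI-1205 and 478 with CPI-0209. In the other direction, LAMB4, a laminin chain gene, stood at 48.5, 41.6 and 39.02 CPM with CPI-1205 and 3.400, 0.632 and 3.15 CPM with CPI-0209 and was higher on the log2 scale by a 95% interval of 3.30 to 5.11 (edgeR adjusted p 5.9e-07). VIT, a matrix protein gene, stood at 16.8, 10.03 and 7.29 CPM with CPI-1205 and 0.557, 0.402 and 1.34 CPM with CPI-0209 (4.02 ± 0.41, edgeR adjusted p 2.42e-07). ARG1, the urea cycle arginase gene, had 73 counts with CPI-1205 and 2 with CPI-0209, a ratio of 24.4 (95% counting interval 6.51 to 205). IGHA1 stood at 6.903, 0.6601 and 0.448 CPM with CPI-1205, with library 1 far above the others, and 0.279, 0.172 and 0.0956 CPM with CPI-0209, and AC018647.1, a gene with no role given here, stood at 9.58, 1.44 and 2.37 CPM with CPI-1205 and 0.0557, 0.115 and 0.478 CPM with CPI-0209.

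Basal, squamous and metabolic genes were more often higher than lower with CPI-1205 against CPI-0209, while 10 of 34 luminal urothelial genes were higher and 10 lower (median 0.03). Among basal and squamous genes, 37 of 60 were higher and 5 lower (median 0.73), with KRT10 at 1105, 1119.9 and 708 CPM with CPI-1205 and 289, 279 and 284 CPM with CPI-0209 (1.78 ± 0.24, edgeR adjusted p 5.99e-06). Of 33 cholesterol and fatty acid synthesis genes 24 were higher and 0 lower (median 0.71), and of 36 hypoxia and glycolysis genes 19 were higher and 3 lower (median 0.52). Markers of other cells also differed, and their part in the result was not tested. Skeletal muscle markers were lower in 15 of 18 and higher in 2 (median -4.82). Fibroblast and matrix markers were lower in 14 of 21 and higher in 4, and macrophage and granulocyte markers lower in 10 of 15 and higher in 1. Skin keratinocyte and hair markers went the other way, with 5 of 11 higher and 0 lower (median 1.78).

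PF-06821497, an EZH2 inhibitor given at the same dose, gave a smaller contrast, with 281 genes higher with CPI-1205 (1.28%) and 772 lower (3.52%) by edgeR. MHC class II genes were lower in 8 of 17 (median -1.62), cytokine and chemokine genes in 19 of 44 (median -0.96) and cancer-testis genes in 9 of 38 (median -0.21), with 0 higher in each, while 0 of 26 HOX genes were called, 1 being lower at an unadjusted p under 0.05 by edgeR (9.98% of all genes). HLA-DPB1 stood at 0.999, 1.44 and 0.537 CPM with CPI-1205 and 4.88, 3.31 and 4.303 CPM with PF-06821497 (-2.05 ± 0.39, edgeR adjusted p 0.00369). HLA-DQB1 (-1.62 ± 0.40, edgeR adjusted p 0.0255) and CD74 (-1.54 ± 0.40, edgeR adjusted p 0.0348) were also lower. CIITA did not pass (-0.75 ± 0.29, edgeR adjusted p 0.149). PRAME stood at 1.09, 1.65 and 1.16 CPM with CPI-1205 and 6.08, 4.43 and 7.33 CPM with PF-06821497 and was lower with a log2 fold change of -2.18 ± 0.29 (edgeR adjusted p 0.000201). BMP5, a bone morphogenetic protein gene, stood at 0.0908, 0.165 and 0 CPM with CPI-1205 and 3.32, 2.54 and 1.54 CPM with PF-06821497 (-4.72 ± 0.56, edgeR adjusted p 8.49e-05). Genes near 0 with CPI-1205, such as BMP5, were tested only where another arm had counts, which favours a lower call. NDP, a secreted Wnt pathway ligand gene, stood at 0.681, 0.743 and 0.224 CPM with CPI-1205 and 9.87, 1.98 and 5.18 CPM with PF-06821497 (-3.33 ± 0.46, edgeR adjusted p 0.000292).

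HAS2, a hyaluronan synthase gene, ST6GAL1, a sialyltransferase gene, and GNG11, a G protein subunit gene, completed, with BMP5 and NDP, the 5 largest falls among called genes with no overlap and a mean of at least 1 CPM with PF-06821497, with log2 fold changes of -3.32 ± 0.45, -3.36 ± 0.53 and -4.26 ± 0.69. Higher with CPI-1205 were LAMB4 (1.59 ± 0.35, edgeR adjusted p 0.0136), ADAMTS5, a cartilage proteoglycan protease gene (1.82 ± 0.37, edgeR adjusted p 0.0063), and the uncharacterised genes AC018647.1, AL359715.2 and AL158209.1. These counts rested on single libraries: leaving out 1 library at a time gave 56 to 936 higher and 308 to 1272 lower, both extremes coming from PF-06821497 libraries 1 and 2, numbered by title. The resubmission mark stands on library 1 of that group in the titles and on library 2 in the file headers, so which of these libraries was resubmitted is uncertain. The class II count was 1 without PF-06821497 library 1 or CPI-1205 library 1, and 2 without library 3 of either group. In a fit of these groups alone, 3 genes were higher and 92 lower.

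Against tazemetostat, an approved EZH2 inhibitor, no difference passed. By edgeR 0 of 21958 genes were called in either direction (0%), limma-voom called 0 and DESeq2 0 higher and 9 lower, while at an unadjusted p under 0.05 edgeR had 1074 higher (4.89%) and 1191 lower (5.42%). Of 15875 genes at a mean of at least 1 CPM, 14171 (89.3%) had intervals within 2-fold of tazemetostat. HLA-DPB1 stood at 0.999, 1.44 and 0.537 CPM with CPI-1205 and 1.398, 1.53 and 1.17 CPM with tazemetostat, a log2 difference whose 95% interval ran from -1.33 to 0.44. CXCL1 stood at 1.499, 1.24 and 1.57 CPM with CPI-1205 and 2.04, 1.45 and 1.42 CPM with tazemetostat (95% interval -0.95 to 0.55), and PRAME at 1.09, 1.65 and 1.16 CPM with CPI-1205 and 1.04, 0.845 and 1.25 CPM with tazemetostat (95% interval -0.37 to 1.02). Larger differences are outside these intervals, but an adjusted p above the threshold does not show that the compounds act alike. Without a filter on low counts edgeR called 90 higher and 250 lower.

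Set against the other arms, 1902 genes were higher (8.66%) and 2824 lower (12.9%) with CPI-1205 than with Valemetostat, and 1140 higher (5.19%) and 2237 lower (10.2%) than with MAK683, an inhibitor that binds EED. HLA-DPB1 stood at 19.2, 13.1 and 34.1 CPM with Valemetostat and 19.7, 13.8 and 14.8 CPM with MAK683, both above CPI-1205 (edgeR adjusted p 1.11e-07 and 6.94e-07). In 201 genes CPI-1205 was higher (0.915%), and in 650 lower (2.96%), than in all of CPI-0209, PF-06821497, Valemetostat and MAK683. The filter on low counts favours lower calls here too, since genes near 0 with CPI-1205 were tested only where another arm had counts. No gene stood apart from all 6 other groups by edgeR (0 of 21958), since that requires a call against vehicle and tazemetostat as well; DESeq2 found 2 such genes and limma-voom 0. Each compound was also compared with the same vehicle libraries, which these contrasts share: by edgeR 41.1% of genes were called for CPI-0209, 27.3% for Valemetostat, 15.6% for MAK683, 9.55% for PF-06821497 and 0% for tazemetostat.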

How the data were processed

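RNA-seq of xenograft tumours was deposited as 21 files, 1 per library, of whole-number read counts per gene, which were joined by gene ID. The deposited counts carry no normalization; STAR 2.7.3a, RSEM 1.3.1 and hg38 are named in the submitters' processing notes, while the counting program, strand setting and annotation release were not given in the sources used here. Symbols were matched by gene ID to GENCODE for 56898 of 57500 genes. From the counts, edgeR 4.0.16 (R 4.3.3) computed TMM-scaled CPM and quasi-likelihood tests with Benjamini-Hochberg adjustment in 1 fit of 21 libraries with a term per group, after its default filter on low counts left 21958 genes (14 residual degrees of freedom). The median log2 fold change given for a list is the edgeR value, and errors after ± are standard errors. DESeq2 1.42.0 and limma-voom (limma 3.58.1) were alternatives, as were other filters, scalings, covariates and leaving out libraries. The edgeR fit was tested on simulated data. With 3 libraries against 3, an exact permutation test of 1 gene cannot go below 0.1. Genes were named as EZH2, EZH1, EED and SUZ12, by the largest called differences, and, from every list, as at most 4 members of lowest p; others are stated as chosen after their values were seen, including HLA-DPB1, HLA-DQB1, CD74, CIITA, CXCL1 and PRAME. The groups and gene lists were chosen with earlier results of these data known. Depth ranged from 9725690 to 25771778 counts over all libraries.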

Additional observations from a re-analysis of the deposited data

How the results depend on the processing

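Against vehicle, edgeR called 124 higher and 234 lower with no filter on low counts, 13 and 17 with a term for the resubmission mark, 93 and 199 without the marked libraries, and 1 higher with the short-minus-long covariate; DESeq2 called 5 and 41, or 4 and 8 without its own filter and 6 and 16 with that filter tuned to 0.1. Leaving out 1 library gave 0 to 1 higher and 0 to 3 lower. Against tazemetostat the numbers were 90 and 250 unfiltered, 9 lower by DESeq2, 17 and 30 with the resubmission term, and 123 and 239 without marked libraries. Against PF-06821497 higher genes numbered 449 by DESeq2, 3 in a fit of both groups alone, 184 with the replicate block, 505 with the resubmission term and 732 with the covariate; lower genes numbered 1260 unfiltered, 92 in both groups alone and 1221 with the covariate. There, cytokine genes lower were 29 unfiltered, 7 in both groups alone and 10 without marked libraries, class II genes 1 and 0, and cancer-testis genes 2 in both groups alone. Leaving out 1 library gave 56 to 936 higher, 308 to 1272 lower, 1 to 9 class II, 10 to 24 cytokine and 5 to 8 cancer-testis genes.

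Against CPI-0209, 1677 were higher in both groups alone and 14 HOX genes lower without marked libraries; leaving out 1 library gave 2566 to 3402 higher, 3727 to 4613 lower and 22 to 29 HOX genes lower. Genes apart from all 6 groups numbered 48 unfiltered, 2 by DESeq2, 10 with the resubmission term and 162 without marked libraries. The sign turned for EZH2 (-0.0042 unfiltered, -0.10 resubmission term, -0.087 without marked libraries, -0.038 to 0.063 leaving out 1 library), EZH1 (0.0054 at 1 CPM, 0.045 upper quartile, 0.0013 both groups alone, 0.027 and 0.068 for the resubmission settings, -0.044 to 0.017 leaving out 1 library), SUZ12 (0.10, covariate), HSPA5 and VWF (0.076 and 0.069 without marked libraries) and CIITA (-0.055 against vehicle with the resubmission term; -0.28, -0.046, and -0.11 to 0.24 leaving out 1 library, against tazemetostat). It also turned for DCN (-0.70 without CPI-1205 library 1, with a range to 2.37 leaving out 1 library) and HLA-DPB1 (-0.13 without CPI-1205 library 2, with a range to 0.68). The cause was not tested. Same-numbered CPI-1205 and vehicle libraries correlated at -0.08, -0.20 and -0.10, and differently numbered ones at -0.07 to 0.20. The numbers thus showed no sign of pairing, but with 3 libraries a group this check cannot exclude it. The replicate block left 0 calls against vehicle. The resubmission term uses the mark in the titles; libraries marked in title or header were left out. The added settings (covariate, DESeq2 without its own filter or tuned to 0.1) were chosen after seeing the data. In the simulated data for CPI-1205 against vehicle, 1.5-fold changes were mostly not detected (9 of 50 recovered).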
